A study of Homo sapiens with 21 samples.

Results

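PancB1Q and PancB1V, pancreatic cancer cell lines that resist 5-fluorouracil, were compared with PancVB, the sensitive cell line from which they were made. These are 3 of the 21 RNA sequencing libraries of the series, which covers resistant cell lines of several tumor types and their parental lines. PancVB is a name for Panc 03.27, a line from a pancreatic ductal adenocarcinoma, and the labels give it as sensitive, with no drug, and as derived in vitro. PancB1Q and PancB1V carry the labels resistant and 5-fluorouracil, and all 3 were grown in RPMI 1640 with fetal bovine serum. Each line is represented by 1 library, so its spread between cultures is unknown and no p-value is given. Whether the resistant cells were under drug when RNA was taken is not given in the sources used here. Of 53515 genes in the count tables, 13823 had a mean of at least 1 CPM (counts per 1000000 counts on genes) over the 3 libraries and are called measured. The genes described here are those whose log2(CPM + 1) differed from PancVB by more than 1 in the same direction in both resistant lines, of which there were 1484.

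5-fluorouracil is a uracil analogue that cells convert to nucleotides. A product of this conversion blocks thymidylate synthase, the enzyme that makes the thymine nucleotide of DNA, and other products enter RNA and DNA. Dihydropyrimidine dehydrogenase breaks the drug down. In an epithelial-to-mesenchymal transition (EMT), carcinoma cells lose junction proteins and epithelial regulators and gain matrix and motility genes, and the study compared parental with resistant lines to follow such changes.

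Promoters are shown for a pair of collagen genes and for members of a gene list that were lower in both resistant lines. COL4A1 and COL4A2, chains of the basement membrane collagen, were far higher in both resistant lines. They lie head to head, with RefSeq start sites 127 bases apart, and the 126 bases between the starts (GRCh38.p14, chr13:110307158-110307283, minus strand) are printed. Of these bases 80.2% are G or C.
COL4A1: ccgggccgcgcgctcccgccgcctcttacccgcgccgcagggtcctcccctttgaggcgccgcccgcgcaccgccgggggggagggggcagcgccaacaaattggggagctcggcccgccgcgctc

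The list is that of the interferon-stimulated genes, of which 14 of 30 measured members were lower in both resistant lines. Of all measured genes 5.38% were lower in both. The search below concerns the promoters of the list. Promoters of interferon-stimulated genes often hold the interferon-stimulated response element, searched here as GAAA, any 2 bases and GAAA on both strands. The search used the RefSeq windows of 250 bases before to 50 after the start, where overlapping matches were each counted. Of the 14 members lower in both lines, 11 had a window, and 9 of these 11 (81.8%) held a match. Of the measured members without a shared call, 6 of 11 with a window (54.5%) held it, against 1255 of all 35116 windows (3.57%). A match is a run of letters and not a measured binding site. The 250 bases before the start are printed for IFI27, IFIT1 and ISG15 with matches in capitals, at chr14:94110486-94110735, chr10:89392373-89392622 and chr1:1013247-1013496 of GRCh38.p14, all on the plus strand. ISG15 was chosen after its values were seen.
IFI27: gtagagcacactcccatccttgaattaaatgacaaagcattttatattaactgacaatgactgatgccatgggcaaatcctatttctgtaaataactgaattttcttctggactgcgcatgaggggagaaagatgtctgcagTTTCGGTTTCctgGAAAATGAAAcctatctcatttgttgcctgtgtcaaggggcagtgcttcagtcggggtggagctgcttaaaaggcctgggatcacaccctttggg
IFIT1: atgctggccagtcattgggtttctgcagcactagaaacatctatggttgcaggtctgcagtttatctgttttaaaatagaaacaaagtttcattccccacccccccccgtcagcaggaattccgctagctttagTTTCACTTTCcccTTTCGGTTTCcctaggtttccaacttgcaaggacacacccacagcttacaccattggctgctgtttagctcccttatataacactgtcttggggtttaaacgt
ISG15: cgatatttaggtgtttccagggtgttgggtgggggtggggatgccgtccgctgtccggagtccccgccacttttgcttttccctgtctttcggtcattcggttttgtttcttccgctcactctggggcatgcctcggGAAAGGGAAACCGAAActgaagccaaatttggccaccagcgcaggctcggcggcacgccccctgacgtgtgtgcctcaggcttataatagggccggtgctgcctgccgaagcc

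The libraries held 21723626 counts on genes in PancVB, 28560479 in PancB1Q and 24835303 in PancB1V, so that 3 counts, taken as the smallest detected number, are 0.105 to 0.138 CPM. Intervals in parentheses are 95% intervals of the log2(CPM + 1) difference from Wilson bounds, and they cover counting error only. Mitochondrial genes took 4.9% to 5.52% of the counts and ribosomal protein genes 3.88% to 4.53%. Median differences in the 4 quartiles of exon length ranged from -0.11 to -0.05 in PancB1Q and from -0.01 to 0.02 in PancB1V. Over measured genes, the log2(CPM + 1) of PancVB correlated with that of PancB1Q at r = 0.925 and with that of PancB1V at r = 0.91, and with that of the 14 other lines at 0.76 to 0.862. The most alike of these other lines was the ovarian line UWB1.289 for PancVB, PancB1Q and PancB1V. Of 19 markers of pancreatic ductal carcinoma, 12 were measured, and the list summed to 7059, 4003 and 3836 CPM in PancVB, PancB1Q and PancB1V. Among the measured was the keratin KRT8 at 1557, 1018 and 878 CPM, whereas CFTR and CEACAM6 had no count in any of the 3. PDX1, TFF1 and S100P had at most 0.201 CPM. The markers of fibroblasts and stellate cells summed to 7.07 to 10.9 CPM over 12 genes, with DCN and PRRX1 without a count, and the 8 leukocyte markers to 13.5 to 18.4 CPM, mostly from CD68. The 8 hepatocyte markers summed to 80.1, 271 and 473 CPM in PancVB, PancB1Q and PancB1V, nearly all from SERPINA1, with HNF4A and FGB without a count. The endothelial markers summed to 54.1, 67.8 and 159 CPM. The ovarian carcinoma markers summed to 115, 73.9 and 72.0 CPM, with MECOM at 83.4 and PAX8 at 21.7 CPM in PancVB.

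Relative to PancVB, 867 genes were higher (6.27% of the measured genes) and 1241 lower (8.98%) by more than 1 in PancB1Q, and 1225 (8.86%) were higher and 978 (7.08%) lower in PancB1V. In both lines, 740 genes were higher (5.35%) and 744 lower (5.38%), and 2 genes (0.0145%) were past 1 in opposite directions. Of the higher genes, 96 had at most 3 counts in PancVB, and 12 of the lower genes had at most 3 in each resistant line. The filter on mean CPM takes in 2 resistant libraries and 1 of PancVB, and without it 745 genes were higher and 824 lower. The comparisons share the PancVB library, so an unusual value there moves both alike. Of the shared genes, 609 of the higher and 680 of the lower were protein-coding. The counting interval excluded 0 in both lines for all 1484, which the threshold itself makes likely at this depth. With the near bound of the interval past 1 in both lines, 522 genes were higher and 505 lower. In the lines of the series that have 2 libraries, 0.00714% to 5.13% of genes differed by more than 1 between these libraries, with HCC4006P1 counted over the genes outside a stretch that has no counts in its replicate 1. That spread comes from other cell lines and was not measured for these. Scaling moved the split of the shared calls. By total counts 49.9% of them were higher, against 61.4% with TMM-scaled and 62.5% with median-of-ratios sizes, and the median difference of all genes moved from -0.09 to 0.13 and 0.14 in PancB1Q and from 0.00 to 0.06 and 0.07 in PancB1V. At the threshold, RASA3 was just inside with differences of 1.002 and 1.362, and IFT122 just outside with -1.0 and -1.007.

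The protein-coding genes that were highest above PancVB in both lines were led by the basement membrane. COL4A1 had 0.875 CPM in PancVB, 226 in PancB1Q and 193 in PancB1V, a difference of 6.92 (6.58 to 7.18) and 6.69 (6.35 to 6.96). COL4A2 had 3.87, 332 and 292 CPM, with differences of 6.1 (5.84 to 6.34) and 5.91 (5.66 to 6.16). The genes lie at chr13:110801310-110959504 and chr13:110958159-111165556 of GRCh37 and overlap at their starts on opposite strands, and counting by strand is not stated, so reads there could be assigned to either. Both are on chromosome 13, where the median difference was 0.7 and 0.72, and less that median COL4A1 differed by 6.22 and 5.97. SPARC, a matricellular protein that binds collagen, had 3.41 CPM in PancVB, 324 in PancB1Q and 252 in PancB1V. PXDN, a peroxidase that crosslinks collagen IV, had no count in PancVB and 38.5 and 43.4 CPM in the resistant lines, at least 279-fold and 315-fold higher against 3 counts. GPC6, a cell surface proteoglycan on chromosome 13, had 2 counts in PancVB and 60.7 and 43.6 CPM in PancB1Q and PancB1V.

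The remainder of this group were genes of several kinds. SLCO1B3, an organic anion transporter of hepatocytes, had 1.1 CPM in PancVB, 165 in PancB1Q and 124 in PancB1V. INHBA, which encodes the activin A subunit, had 6.72, 189 and 437 CPM, a difference of 4.62 (4.42 to 4.83) and 5.83 (5.62 to 6.03). KISS1, the precursor of kisspeptin peptides, had 1.47, 57.9 and 96.2 CPM. In each of these genes both resistant lines lay far above PancVB. The others were PLCB4, LYPD5, NTNG1, SCARF1, CDK14, SAMD14 and TRHDE, whose levels were below 2 CPM in PancVB. SCARF1, a scavenger receptor, reached 47.1 and 93.7 CPM, and NTNG1, a netrin family member without a count in PancVB, 26.1 and 29.9 CPM. CDK14 overlaps CLDN12 on the same strand, and INHBA and TRHDE overlap antisense genes, so their counts could be shared.

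**Figure D1:**
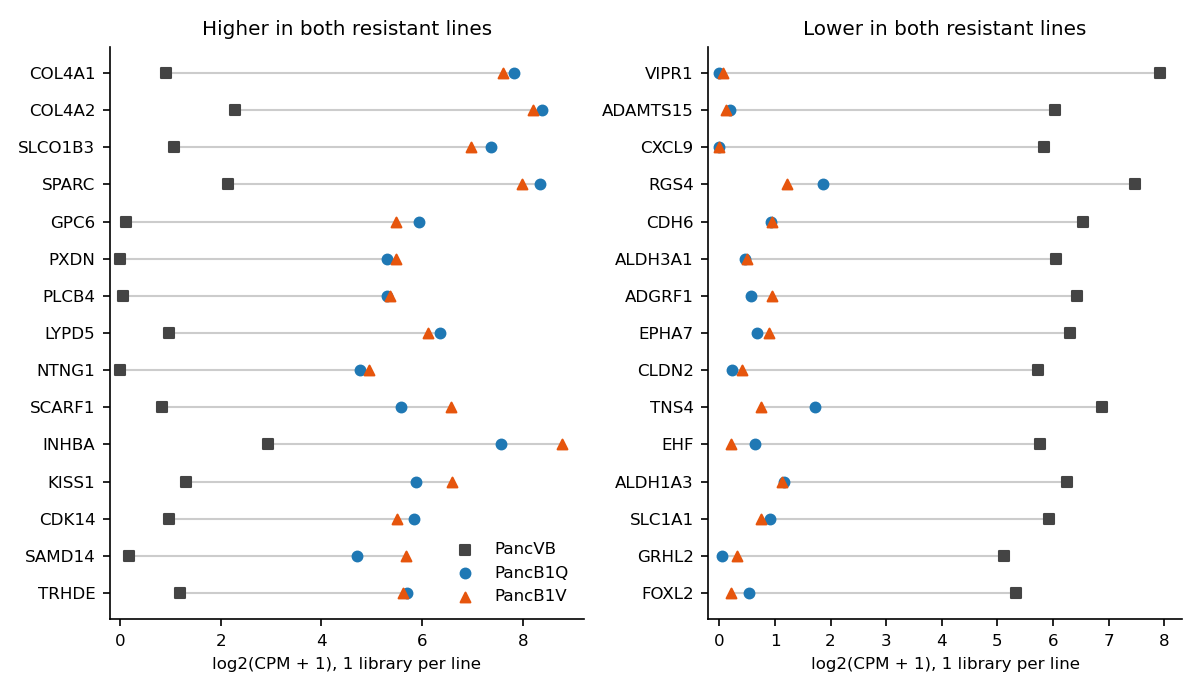
Level of the 15 genes furthest above (left) and the 15 furthest below (right) PancVB in both resistant lines, as log2(CPM + 1) on the horizontal axis with 1 point per library. For every gene the 2 resistant lines lie together and apart from PancVB, as the choice of these genes requires, for example COL4A1 at 0.875 CPM in PancVB against 226 and 193 CPM.

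Genes furthest below PancVB included a receptor, a chemokine and regulators of epithelial identity. VIPR1, the receptor of vasoactive intestinal peptide at chr3:42530791-42579065, had 5255 counts or 242 CPM in PancVB, no count in PancB1Q and 1 in PancB1V, a difference of -7.92 (-7.96 to -7.74) and -7.87 (-7.93 to -7.62). CXCL9, an interferon-induced chemokine, had 56.3 CPM in PancVB and no count in either resistant line, at least 536-fold and 466-fold lower. EHF and GRHL2 are transcription factors of epithelial genes. EHF had 53.2 CPM in PancVB, 0.56 in PancB1Q and 0.161 in PancB1V, and GRHL2 had 33.6, 0.035 and 0.242 CPM. ALDH3A1 and ALDH1A3, aldehyde dehydrogenases, had 65.3 and 74.9 CPM in PancVB and between 0.385 and 1.23 CPM in the resistant lines. CLDN2, a claudin that forms cation pores in tight junctions, had 52.2, 0.175 and 0.322 CPM. TNS4, a focal adhesion protein, had 117, 2.31 and 0.685 CPM. RGS4, which shortens G protein signals, had 177, 2.63 and 1.33 CPM. ADAMTS15, CDH6, ADGRF1, EPHA7, SLC1A1 and FOXL2 completed the group, with 39.3 to 92.5 CPM in PancVB and less than 1 CPM in both resistant lines.

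These genes were also looked up in the other 8 resistant lines of the series, which were made with other drugs. COL4A1 was higher by more than 1 in 7 of these 8 comparisons, of which HCC4006ER at 1.01 was nearest the threshold, and it was lower by 0.54 in IGROV-1/CDDP. COL4A2 was past 1 in 4 of them and lower by 1.19 in IGROV-1/CDDP. The 15 higher genes were higher by more than 1 in a median of 2 of 8 comparisons, KISS1 and LYPD5 in none, and 7 of the 15 were lower by more than 1 in at least 1 comparison, such as LYPD5 by 1.2 in HCC4006ER. The 15 lower genes were lower in a median of 2 of 8 comparisons and 5 of them in none. Of the 15, 10 were higher by more than 1 somewhere, as were ADAMTS15 in 4, RGS4 and CDH6 in 3 and SLC1A1 in 5 of the 8. Of all 13823 genes, 4.31% to 24.7% were higher and 1.54% to 13.6% lower by more than 1 in a comparison. Some of these comparisons share a parental line, and a replicate of HCC4006P1, the parent of HCC4006ER, lacks counts over part of the genome.

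Among genes of the drug's own metabolism, TYMS, which encodes thymidylate synthase (chr18:657653-673578), was higher in both lines. It had 158 CPM in PancVB, 355 in PancB1Q and 347 in PancB1V, a difference of 1.16 (1.1 to 1.21) and 1.13 (1.07 to 1.18), or 2.24-fold and 2.19-fold. The median on chromosome 18 was 0.26 and 0.28, and less that median TYMS differed by 0.9 and 0.85, below the threshold. TYMS overlaps TYMSOS and ENOSF1 on the other strand. It was the only 1 of 20 measured genes of thymidylate synthesis, folate metabolism and uracil repair that passed 1 in both lines. That is near the share over all measured genes, of which 5.35% were higher and 5.38% lower in both. The list's median was -0.09 and -0.08, against -0.09 and 0.00 over all genes. Of 25 measured genes of uptake, activation and breakdown, 3 were lower in both lines and none higher, with a median of -0.19 and -0.27.

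Lower in both were TYMP, ABCC3 and ABCG2. TYMP, thymidine phosphorylase, which can convert 5-fluorouracil to its nucleoside, had 14.9, 5.78 and 6.64 CPM, a difference of -1.23 (-1.46 to -0.99) and -1.05 (-1.29 to -0.81). With TMM-scaled sizes TYMP in PancB1V was -0.99, no longer past 1. ABCC3 and ABCG2 are efflux transporters. ABCC3 had 166 CPM in PancVB, 29.5 in PancB1Q and 45.4 in PancB1V, and ABCG2 had 3.64, 0.42 and 0.242 CPM. Of 7 measured ABC efflux transporters, these 2 were lower in both lines and none was higher, against 5.38% and 5.35% of all measured genes. DPYD, the gene of dihydropyrimidine dehydrogenase, had 142, 82.7 and 53.4 CPM and passed the threshold in PancB1V alone, with -0.77 (-0.85 to -0.7) in PancB1Q and -1.4 (-1.49 to -1.31) in PancB1V. UMPS, which forms the drug's nucleotide directly, had 82.1, 66.1 and 53.6 CPM, a difference of -0.31 (-0.4 to -0.22) and -0.61 (-0.71 to -0.51). Neither DPYD nor UMPS met the rule for a shared call.

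**Figure D2:**
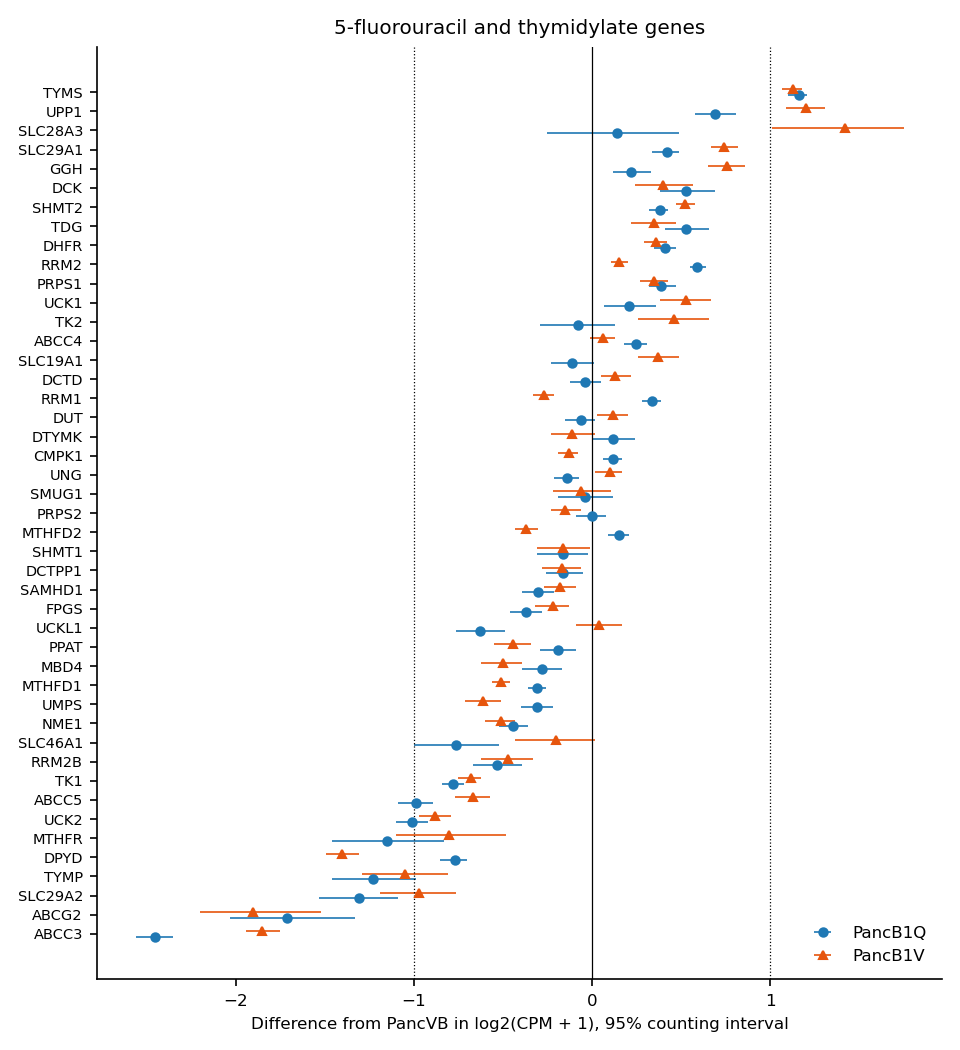
Differences from PancVB in log2(CPM + 1) on the horizontal axis, with 95% counting intervals, for each measured gene of the 5-fluorouracil and thymidylate lists. Dotted lines mark differences of -1 and 1. TYMS alone lies above 1 in both lines, and TYMP, ABCG2 and ABCC3 lie below -1 in both.

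Of 23 measured regulators and surface proteins of epithelia, 12 were lower in both lines and 2 higher, with a median of -1.01 and -1.02, against 5.38% and 5.35% of all genes. With TMM-scaled sizes 9 were lower. Beside GRHL2 and EHF, these included MAL2, a protein of apical transport, with 53.3 CPM in PancVB and 1.05 and 1.65 CPM in PancB1Q and PancB1V, and LAD1, an anchoring filament protein of basement membranes, with 66.1, 6.72 and 6.64 CPM. The exceptions were AP1M2, an adaptor of epithelial sorting, with 0.737, 11 and 10.5 CPM, and CDH3, P-cadherin, with 1.15, 4.87 and 3.42 CPM. Of 16 measured tight junction genes, 4 were lower (CLDN2, CLDN3, CGN and PARD6B) and CLDN12 was higher. Keratins followed, with 4 of 9 lower and none higher. KRT19 had 677 CPM in PancVB, 82 in PancB1Q and 28.6 in PancB1V, a difference of -3.03 (-3.09 to -2.97) and -4.52 (-4.62 to -4.41). KRT7 had 2543, 1055 and 876 CPM, KRT17 had 13.4, 1.33 and 0.201 CPM, and KRT81 had 16.4, 4.69 and 3.54 CPM.

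Of 9 measured genes of desmosomes, the junctions that anchor keratins, and of the cornified plaque, 3 were higher in both lines and 1 was lower. Of all measured genes 5.35% were higher and 5.38% lower in both lines, and the desmosome list's median was 0.51 and 0.38. With TMM-scaled sizes 4 of the list were higher and none lower, and with differences from the chromosome median 2 were higher and none lower. DSP, desmoplakin, had 126 CPM in PancVB, 756 in PancB1Q and 658 in PancB1V, a difference of 2.58 (2.52 to 2.63) and 2.38 (2.32 to 2.44). The desmocollins DSC3 and DSC2 were also higher, with 29.9, 116 and 84.3 CPM for DSC3 and 25.8, 75.7 and 60.6 CPM for DSC2, and EVPL, envoplakin, was lower, at -1.02 and -1.03, but at -0.79 and -0.97 with TMM-scaled sizes. DSG2, a desmosomal cadherin, had 338, 814 and 671 CPM and differences of 1.26 and 0.99, and so passed in PancB1Q alone. PPL, periplakin, had differences of -0.84 and -1.34 and JUP, plakoglobin, of -0.98 and -0.74. DSP lies in the first 20 Mb of chromosome 6, where the median difference was 1.3 and 1.48. Less the chromosome 18 median, DSC2 in PancB1V was 0.92. CDH1, E-cadherin, was already low in PancVB, with 2.12, 3.12 and 0.805 CPM, and EPCAM had 82.4, 64.5 and 50.8 CPM, and neither passed the threshold in a line. CDH2, N-cadherin, with 312, 363 and 317 CPM, and VIM, vimentin, with 2332, 2077 and 2442 CPM, did not pass either, and the difference of VIM in PancB1Q was -0.17 by total counts and 0.07 with TMM-scaled sizes.

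The 30 measured genes of the study's mesenchymal signature had a median of 0.47 and 0.62. Of them, 9 were higher in both lines and none was lower, against 5.35% and 5.38% of all measured genes. The 9 were COL12A1, COL4A1, COL4A2, COL5A3, COL7A1, MMP9, SPARC, VCAN and ZEB2. Of the 13 genes that the study's signature table marks as epithelial, a split that differs from the one in its text, GRHL2, KRT19 and LAD1 were lower and DSP higher. Both signatures were taken from published EMT genes and include genes of the other lists. ZEB2 was the only 1 of 8 measured EMT transcription factors past the threshold in both lines, with 5.34 CPM in PancVB, 12.3 in PancB1Q and 18 in PancB1V.

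Collagens and other matrix genes lay on both sides of PancVB. Of 23 measured collagen chains, 6 were higher and 4 lower, against 5.35% and 5.38% of all measured genes. COL7A1, the anchoring fibril collagen, had 8.06 CPM in PancVB, 148 in PancB1Q and 278 in PancB1V, a difference of 4.04 (3.84 to 4.23) and 4.95 (4.75 to 5.14), and COL12A1 had 71.9, 1013 and 559 CPM. Within collagen IV the chains split. COL4A5 and COL4A6, which pair with other chains in specialized basement membranes, were lower, with 30.3, 1.4 and 2.34 CPM for COL4A5 and 3.96, 0.14 and 0.725 CPM for COL4A6. COL18A1 and COL8A1 were lower as well, with 534, 219 and 217 CPM for COL18A1. Of 25 matrix glycoproteins and proteoglycans, 6 were higher and 5 lower. VCAN, versican, had 7.83, 174 and 122 CPM and TNC, tenascin-C, 21.7, 299 and 352 CPM. Among the lower genes EFEMP1, fibulin-3, had 1072, 76.4 and 30.3 CPM, and THBS1, thrombospondin-1, had 3337 CPM in PancVB, 760.4 in PancB1Q and 352 in PancB1V. TGFBI and LAMA4 were lower too, by 1.57 to 2.97 on the log2 scale.

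Among matrix proteases and inhibitors, 5 of 20 were higher and 2 lower, against 5.35% and 5.38% of all measured genes. MMP9, a gelatinase that degrades collagen IV, had 0.921, 16.6 and 110.4 CPM, a difference of 3.2 (2.84 to 3.49) and 5.86 (5.52 to 6.13). TIMP3, SERPINB5 and ADAMTS6 were also higher, and MMP7 and TIMP1 lower, but with TMM-scaled sizes the lower pair did not pass in both lines. Of 14 measured integrin subunits, 5 were lower in both lines, ITGB2 was higher and 8 were past 1 in neither direction in both, with a median of -0.86 and -0.59. With median-of-ratios sizes 4 were lower. ITGB4, the partner of ITGA6 in hemidesmosomes, had 431 CPM in PancVB, 60.2 in PancB1Q and 36.3 in PancB1V, and ITGB5 had 371, 109 and 68.5 CPM. Of 12 contractile and caveolar genes, 4 were higher and none lower. TAGLN, transgelin, had 9.02, 23.3 and 32 CPM, CALD1, caldesmon, had 122, 371 and 373 CPM, and CAVIN3, a caveola coat protein, had no count in PancVB and 8.23 and 20.9 CPM in the resistant lines.

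**Figure D3:**
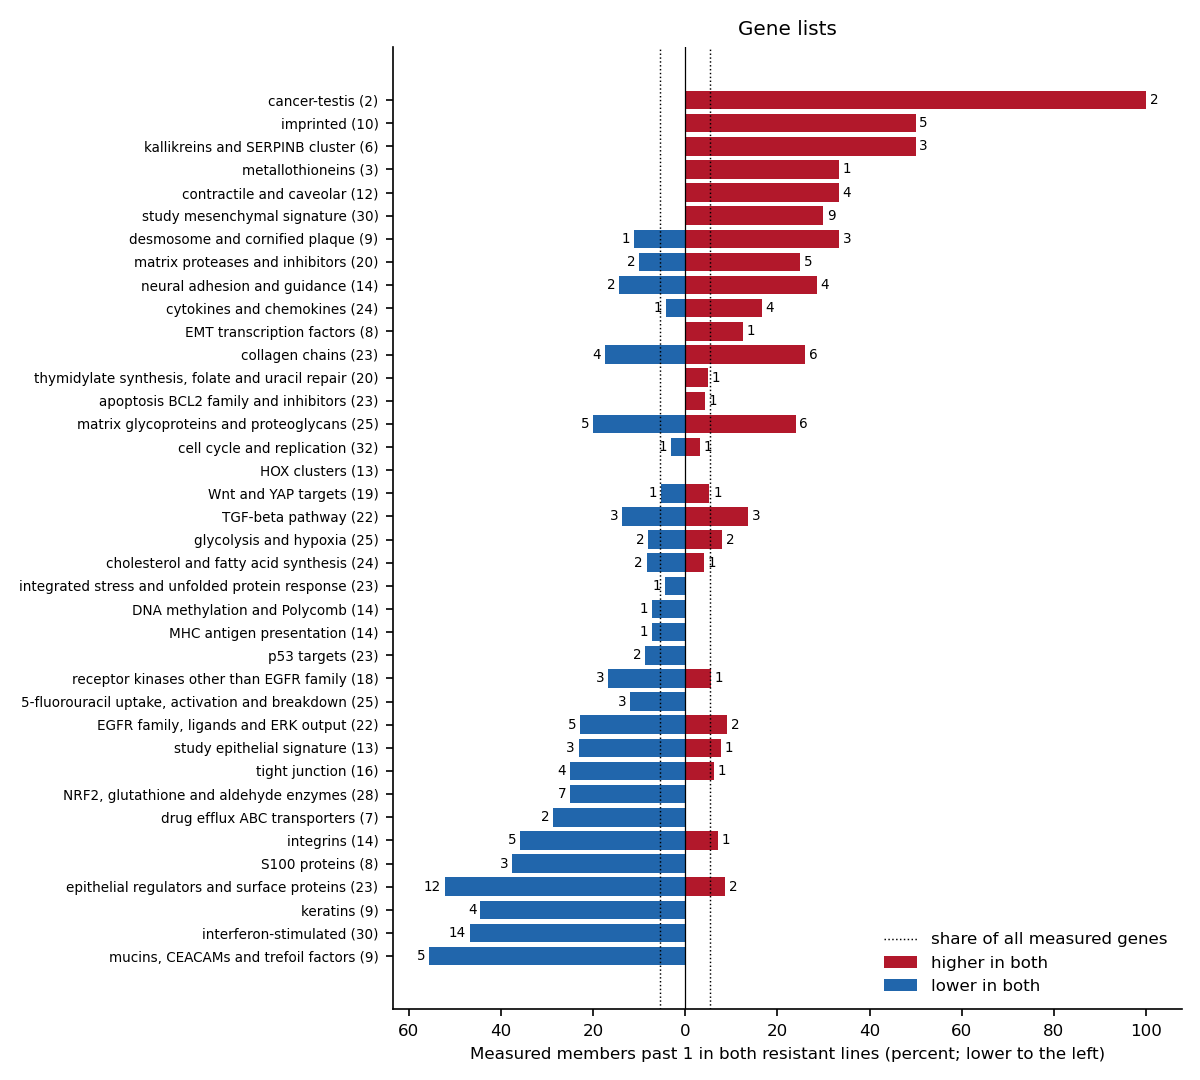
Share of the measured members of each gene list (their number in parentheses) that were higher, to the right, or lower, to the left, by more than 1 in both resistant lines. Numbers beside bars are genes, and dotted lines mark the 5.35% and 5.38% of all measured genes. Bars to the left are longest for mucins and CEACAMs, epithelial regulators and interferon-stimulated genes, with 5, 12 and 14 members.

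Interferon-stimulated genes encode antiviral proteins that type I interferon switches on. Of 30 measured members, 14 were lower in both lines and none was higher, against 5.38% and 5.35% of all measured genes. The list's median was -1.48 and -1.14, and the 14 stayed at this number with TMM-scaled and median-of-ratios sizes. OASL, an oligoadenylate synthetase-like protein, had 121 CPM in PancVB, 3.96 in PancB1Q and 2.62 in PancB1V, a difference of -4.62 (-4.83 to -4.4) and -5.07 (-5.32 to -4.81). IFI27 had 63.4, 1.54 and 1.25 CPM, IFIT1, which binds foreign RNA ends, had 84.2, 6.34 and 6.56 CPM, and IFIT2 had 112, 10.4 and 8.74 CPM. In all 4 both resistant lines lay below PancVB by more than 3 on the log2 scale. The other 10 were IFIT3, IFI6, IFI44L, ISG15, MX1, OAS1, OAS2, IFITM1, SAMD9 and RSAD2. ISG15, whose promoter is printed above, had 83.8, 14.2 and 15 CPM. STAT2, which carries the interferon signal to the nucleus, did not pass the threshold, with 80.6, 45.9 and 51.2 CPM. IRF9, its partner, had 17.7, 6.34 and 11.2 CPM and passed in PancB1Q alone. IFIT1 and IFIT2 lie within LIPA on the opposite strand, and genes of the IFIT, OAS and IFITM families are alike in sequence, so that reads shared between copies are uncertain.

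**Figure D4:**
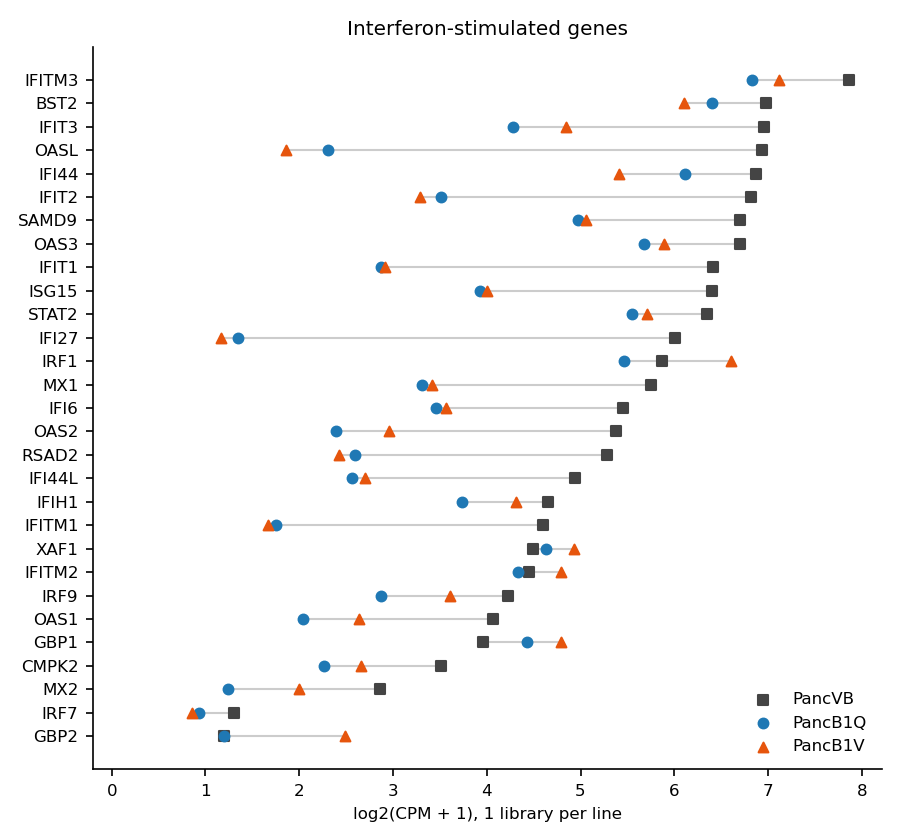
Level of measured interferon-stimulated genes in PancVB, PancB1Q and PancB1V as log2(CPM + 1), 1 point per library, ordered by the level in PancVB. The resistant lines lie far to the left for OASL, IFI27, IFIT1 and IFIT2 and nearer to PancVB for STAT2, at 80.6, 45.9 and 51.2 CPM.

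NRF2 target genes, glutathione genes and aldehyde-metabolizing enzymes had a median of -0.31 and -0.42. Of 28 measured members, 7 were lower in both lines and none was higher, against 5.38% and 5.35% of all measured genes. Beside ALDH3A1 and ALDH1A3 the 7 were NQO1, HMOX1, AKR1B10, AKR1C1 and AKR1C3. AKR1B10, a reductase of aldehydes, had 3.22, 0.14 and 0.121 CPM, and AKR1C3 had 4.74, 0.84 and 0.846 CPM. The AKR1C genes are close copies, and their separate values are uncertain. Mucins and CEACAMs, glycoproteins of the apical surface, were lower in 5 of 9 members. MUC5AC, a gel-forming mucin, had 60.7 CPM in PancVB, 1.93 in PancB1Q and 0.805 in PancB1V, MUC4 had 20.3 CPM in PancVB, no count in PancB1Q and 1 count in PancB1V, and MUC16 had 7.37, 1.96 and 0.0403 CPM. Of 8 S100 proteins, S100A2, S100A4 and S100A13 were lower by 1.14 to 2.04, and 2 of these 3 were past the threshold in both with TMM-scaled sizes. They lie on chromosome 1, where the median was -0.4 and -0.42.

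Of 22 measured genes of the EGFR family, its ligands and its ERK output, 5 were lower and 2 higher. Over all measured genes the shares were 5.38% and 5.35%. TGFA, an EGFR ligand, had 135 CPM in PancVB, 4.38 in PancB1Q and 0.846 in PancB1V, a difference of -4.66 (-4.87 to -4.44) and -6.2 (-6.45 to -5.88). The receptors ERBB3, with 18.6, 2.87 and 1.25 CPM, and ERBB4, with 7.27, 0.385 and 0.604 CPM, were lower, as were EREG and the ERK phosphatase DUSP4. DUSP5 and ETV1 were higher. EGFR, with differences of -0.52 and -0.58, ERBB2, with -0.84 and -0.76, and the ligand HBEGF, with -0.63 and 0.25, did not pass the threshold. Among other receptor kinases FLT1, a VEGF receptor on chromosome 13, had no count in PancVB and 14 and 15.6 CPM in the resistant lines, and EPHA7, EPHB2 and ROR1 were lower, of 18 measured. EPHB2 in PancB1Q was -0.81 with TMM-scaled sizes, and ROR1 in PancB1Q was -1.0 with median-of-ratios sizes, so that neither then passed. In the TGF-beta family the activin and BMP ligands split, with INHBA, INHBB and BMP2 higher and BMP4 lower. BMP4 had 177, 49.8 and 19.9 CPM, and the BMP target genes ID1 and ID2 were lower by 1.4 to 2.1. DKK1, a secreted Wnt inhibitor, had 526, 132 and 87.4 CPM, and WNT10A, a Wnt ligand, 0.322, 6.58 and 14.8 CPM.

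Of 24 measured cytokines and chemokines, 4 were higher in both lines and IL33 was lower, against 5.35% and 5.38% of all measured genes. TNF had 1.24 CPM in PancVB, 34 in PancB1Q and 109 in PancB1V, a difference of 3.96 (3.63 to 4.25) and 5.62 (5.29 to 5.9). IL11 had 2.39, 24.9 and 48.9 CPM, LIF, another cytokine of the IL-6 family, 19.2, 43 and 65.1 CPM, and CXCL5, a neutrophil chemokine, 30.4, 86 and 155 CPM. In each of the 4 PancB1V was highest. The alarmin IL33 had 4.51 CPM in PancVB and no count in either resistant line. Taken by itself, PancB1V had 16 of the 24 higher and 1 lower, with a median of 1.84. PancB1Q had 4 higher and 5 lower, with a median of 0.06. Of all measured genes, 8.86% were higher and 7.08% lower in PancB1V, and 6.27% and 8.98% in PancB1Q.

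Imprinted genes, expressed from 1 parental copy, were higher in 5 of 10 measured members and lower in none, with a median of 0.94 and 1.41. Of all measured genes 5.35% were higher and 5.38% lower in both lines. IGF2, a fetal growth factor, had 0.368 CPM in PancVB, 23.6 in PancB1Q and 80.7 in PancB1V, a difference of 4.17 (3.81 to 4.4) and 5.9 (5.56 to 6.11). PEG10 and SGCE, which share a promoter region on chromosome 7, had 224, 1046 and 1193 CPM and 40.8, 134 and 139 CPM, and CDKN1C and PHLDA2 of chromosome 11 were higher as well. Of 14 neural adhesion and guidance genes, 4 were higher and 2 lower. L1CAM, a neural cell adhesion molecule, had 10.9 CPM in PancVB, 219.8 in PancB1Q and 335 in PancB1V, a difference of 4.21 (4.04 to 4.38) and 4.82 (4.65 to 4.99), and NCAM1 had 24.6, 179 and 209 CPM. CDH11 and ROBO1 were higher, and CDH6 and NRP2 lower.

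Most of the remaining lists held few genes past the threshold in both lines, where 5.35% of all measured genes were higher and 5.38% lower. Of 32 cell cycle and replication genes, TYMS was higher and MCM2 lower, and the MCM2 difference of -1.1 in PancB1Q was -0.87 with TMM-scaled sizes. Of 23 p53 targets, GDF15 and TP53INP1 were lower, but TP53INP1 in PancB1V was -0.95 with TMM-scaled sizes, no longer past the threshold. Of 23 BCL2 family genes and apoptosis inhibitors BCL2 was higher, with 0.829, 7.39 and 7.09 CPM. Among 14 genes of antigen presentation CD74, the invariant chain of MHC class II, was lower, with 47.4, 9.45 and 6.6 CPM. None of 13 measured HOX genes was past 1 in both lines. The hypoxia-responsive genes ADM and BNIP3 were higher and the glycolysis genes ALDOC and SLC16A3 lower, of 25, and of 24 lipid synthesis genes HMGCS1 was higher, and ELOVL6 was lower by total counts but not past the threshold in PancB1Q with TMM-scaled sizes, at -0.91. DDIT4 was lower among 23 stress response genes and KDM6A among 14 of DNA methylation and Polycomb, but KDM6A in PancB1Q was -0.87 with TMM-scaled sizes. The shares were larger in short lists. Of the measured metallothioneins MT1E was higher (of 3), as were SERPINB1, SERPINB5 and SERPINB8 (of 6 kallikreins and SERPINBs). SERPINB1, with differences of 1.47 and 1.73, lies in the first 20 Mb of chromosome 6, where the median was 1.3 and 1.48. Less the chromosome 18 median, SERPINB8 in PancB1Q was 0.74, no longer past 1. Of 24 cancer-testis genes found in the counts only PRAME and MAGEB2 were measured, and both were higher. MAGEB2 had no count in PancVB and 1.09 and 8.38 CPM in PancB1Q and PancB1V, so it counts as measured only through the resistant lines.

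The median difference varied by chromosome. On chromosome 13 the median difference was 0.7 in PancB1Q and 0.72 in PancB1V, and 49 of 229 measured genes were higher and 4 lower in both lines. Chromosome 6 had medians of 0.43 and 0.51, with 97 of 682 genes higher and 12 lower, and chromosome 7 had 0.39 and 0.54, with 67 of 661 higher and 15 lower. On chromosome 1 the medians were -0.4 and -0.42, with 29 of 1338 genes higher and 127 lower. Chromosome 3 had medians of -0.26 in each line, with 24 of 776 higher and 79 lower. The medians of chromosome 19 were -0.45 in PancB1Q and -0.18 in PancB1V, with 63 higher and 47 lower of 887. By windows of 20 Mb with at least 20 measured genes, 15 of 154 had a median above 0.5 in both lines and 6 a median below -0.5. Among these windows the first 20 Mb of chromosome 6 stood highest, with medians of 1.3 and 1.48, 47 of 76 genes higher and none lower. In steps of 5 Mb the medians there were between 1.17 and 1.65, and from 20 to 25 Mb they were 0.46 and 0.52. All 5 windows of chromosome 13 had medians between 0.65 and 0.86. In the windows from 140 to 180 Mb of chromosome 1 they lay between -0.56 and -0.63. These medians describe RNA, and the number of copies of each region was not measured in the data used here. The paper reports low coverage genome sequencing of its cell line pairs, in which resistant lines differed little from their parents, apart from the HepG2 pairs. Those data were not used here, and whether copy number is related to the medians was not tested.

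**Figure D5:**
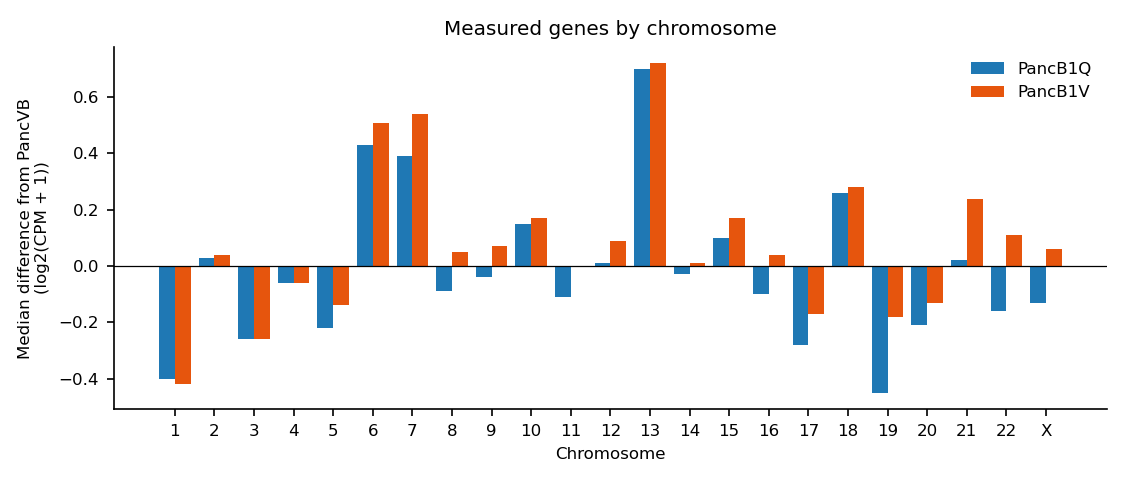
Median difference from PancVB in log2(CPM + 1) of the measured genes on each chromosome, with 1 bar per resistant line. Both lines have their highest bar at chromosome 13 (0.7 and 0.72), and bars of chromosomes 6 and 7 are high and those of chromosome 1 low in both lines.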

How the data were processed

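RNA of PancVB, PancB1Q and PancB1V was sequenced from libraries that the labels describe as stranded mRNA libraries. The submitters' processing notes name Bowtie, TopHat, SAMtools and HTSeq, without versions, and build hg19, and the authors deposited raw counts per Ensembl gene. The strand setting of the counting is not given in the sources used here, and the study also used a kit for transcript ends without saying for which libraries. Of these genes, 45100 were matched to the GENCODE annotation of GRCh37.

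CPM used the total count on genes, and records of reads without a gene were left out (no-feature reads were 6.83% to 10.7%, not-unique reads 22.7% to 27.3% of records). Genes with a mean of 1 CPM were kept, differences used a pseudocount of 1 CPM, which understates changes of low genes, and a call needed a difference past 1 in both lines. Intervals combined 95% Wilson bounds by Newcombe's method. The calls were tested on simulated counts that held counting error alone, which cannot show the effect of spread between cultures. Named are the 15 protein-coding genes per direction with the largest smaller difference, up to 4 called members per list and direction, VIM, CDH1, CDH2, EPCAM, TYMS, DPYD, UMPS, TYMP and the markers; others were named after their values were seen, and some genes are not reported here. Lists and members were chosen with earlier results of these data known. Alternatives used edgeR 4.0.16 TMM and DESeq2 1.42.0 size factors, with no count model, other filters, pseudocounts and thresholds. Python 3.11.15, numpy 2.4.6, pandas 2.3.3 and R 4.3.3 were used.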

Additional observations from a re-analysis of the deposited data

Results flagged for a closer look

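LTB and LGR6 passed the threshold in opposite directions in the 2 resistant lines, and the difference between the lines was not tested. LTB, lymphotoxin beta, a membrane cytokine of the TNF family on chromosome 6, had 103 CPM in PancVB, 25.4 in PancB1Q and 370.0 in PancB1V, a difference of -1.97 (-2.09 to -1.85) and 1.84 (1.77 to 1.91). LGR6, a receptor for R-spondins on chromosome 1, had 2.85, 7.11 and 0.604 CPM, a difference of 1.07 (0.75 to 1.38) and -1.26 (-1.62 to -0.86).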

How the results depend on the processing

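No paired analysis was possible because each line has 1 library. For the same reason no library could be left out, and no spread between cultures stands beside any difference. Depth limits genes near 0.105 to 0.138 CPM. With TMM-scaled sizes 1330 genes were higher in PancB1Q, and with median-of-ratios sizes 1359 were higher and 823 lower. With a mean of 10 CPM or more, 450 genes were higher and 353 lower in both lines, 551 and 578 in PancB1Q, and 677 and 516 in PancB1V. With a threshold of 2, 200 genes were higher and 171 lower in both lines, 238 and 238 in PancB1Q, and 370 and 226 in PancB1V. With the near bound of the counting interval past 1, 782 genes were lower in PancB1Q. Fewer genes enter or a stricter bound applies in these by construction, and for the scaled sizes the cause was not tested. The other counts over all genes, in both lines or in either, stayed within 1.5 times under every alternative run. Of 76 counts within gene lists, 12 moved by more than that with TMM-scaled sizes, 13 with median-of-ratios sizes, 8 with the lower pseudocount and 13 with differences from the chromosome median. No difference past 1 of a named gene changed sign. Differences from the chromosome median, an alternative chosen after seeing the data, left 645 genes higher and 612 lower in both lines, and TYMS, CLDN12, DSC2, EVPL, COL8A1, ETV1, DUSP5 and DPYD were among the genes no longer past 1 in a line where they had been.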

Other observations

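Some genes had no count on one side of the comparison. In PancVB 34 genes had none although both resistant lines had at least 50 counts, and 28 of these were protein-coding. They included TENM4, a teneurin of neuronal adhesion, with 13.2 CPM in PancB1Q and 34.1 in PancB1V, RELN, reelin, with 7.74 and 40.4 CPM, MYO3A with 7.32 and 10.5 CPM, and NRXN3, a neurexin, with 6.76 and 11.5 CPM. Conversely 7 genes with at least 50 counts in PancVB had none in either resistant line, 5 of them protein-coding. Beside CXCL9 and IL33 these were OLFM4, a secreted glycoprotein of intestinal crypts, with 9.07 CPM in PancVB, NUDT12 with 4.93 and GCKR, the glucokinase regulator, with 4.33. These genes were chosen after their values were seen.

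Zinc finger genes named ZNF or ZFP on chromosome 19 were higher in both lines in 46 of 211 measured members and lower in none, with a median of 0.34 and 0.39, against 17 of the 676 other measured genes of that chromosome. ZNF880 and ZNF841 had no count in PancVB and 30.1 and 20.1 CPM and 14.1 and 20.9 CPM in PancB1Q and PancB1V. ZFP30 had 5.71, 95.4 and 61.5 CPM. This family was chosen after its values were seen, so its contrast with the rest of the chromosome is not a test, and its members are alike in sequence. Members without a count in PancVB, such as ZNF880 and ZNF841, count as measured only through the resistant lines. The 46 also hold the antisense record ZNF529-AS1, pseudogenes such as ZNF702P, and ZNF816-ZNF321P, which joins neighboring genes.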
